A study of Mus musculus with 5 samples.

Results

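10 genes of the DNA replication machinery were followed through development of the mouse cerebellum: Mcm2, Mcm3, Mcm4, Mcm5, Cdc45, Cdt1, Pcna, Fen1, Lig1 and Timeless. They were taken by name, as the probes whose only gene symbol is one of these 10, and all 10 were found, each on 1 probe, among 773 genes named by 787 of the 897 probes. The list of names was drawn up with earlier results of these data known. The series holds total RNA of whole cerebellum read on arrays at 5 ages, 1 before birth (E18, embryonic day 18) and 4 after it (P7, P14, P21 and P56, counted in days from birth). Age is the only difference between the groups that the labels give, and no treatment, strain or transgene is named. Each age has 1 column, which the labels describe as a mean over 2 array experiments; the sources used here do not say whether these came from separate animals. There is therefore no test across samples, and the small number of arrays limits the precision.

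DNA is copied in S phase by a machine that is assembled anew in each cell cycle. Cdt1 loads rings of the Mcm2 to Mcm7 proteins onto origins, Cdc45 and the GINS complex switch each ring on as a helicase that unwinds DNA, and Pcna is the sliding clamp that holds the polymerases. On the lagging strand Fen1 trims the flaps between short fragments and Lig1 seals the nicks, while Timeless, with its partner Tipin, steadies the moving fork. In the cerebellum the largest pool of dividing cells after birth is that of granule cell progenitors in the external granular layer, which stop dividing and migrate inward during the early postnatal weeks.

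Each value is read as a percent of that probe's own highest age, taken within each experiment and then averaged. The scale is inferred from the values, since 420 probes stand at exactly 100 at 1 age, 0 do so at 2 or more, and 477 have a highest value under 100. A value of 20% thus says that a gene stood at 20% of its own peak, and gives no rank of RNA amount between genes. On this reading the experiments behind a mean can be bounded: a mean of 10.63% allows neither experiment more than 21.3%, and a mean of 100% fixes both at 100%. A probe whose highest mean lies under 100% must have had 1 experiment peak at one age and the other at another, each at 50% or more on average. All 477 such probes had at least 2 ages at 50% or more, as the reading needs, although 397 of the 420 other probes did too. Values under 1% were set to 1% before logs were taken, which touched 0 of the 10 genes, and a gene is said to rise or fall only at 2-fold or more.

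Because the 10 genes moved together at the main step, the sequence around their annotated starts is shown, with matches to a motif of the E2F family, the transcription factors known for driving S-phase genes. RefSeq windows of 300 bases (250 before the start to 50 after, build GRCm38.p6) were matched by symbol for 9 of the 10 genes in 12 windows; the other gene is Mcm4. The motif was searched on both strands as TTTCCCGC, TTTCGCGC, TTTGCCGC or TTTGGCGC. It was found in windows of 4 genes, shown here 5′ to 3′ on the gene's strand over 30 bases with the matched letters in capitals (Mcm3 at chr1:20820266-20820295, minus strand; Mcm5 at chr8:75109347-75109376, plus strand; Cdt1 at chr8:122568035-122568064, plus strand; Lig1 at chr7:13278841-13278870, plus strand):
Mcm3: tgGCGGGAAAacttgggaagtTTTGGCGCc
Mcm5: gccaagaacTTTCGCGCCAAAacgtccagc
Cdt1: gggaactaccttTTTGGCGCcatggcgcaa
Lig1: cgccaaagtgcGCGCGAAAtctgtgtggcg
In Mcm5 the matches began 153 and 149 bases before the start, on opposite strands, and shared 4 bases. The matches of Mcm3, Cdt1 and Lig1 (at 1 of its 3 annotated starts) lay after the start, so a window of the 250 bases before it held a match for 1 of the 9 genes (11.1%), against 2.16% of all genes and 5.79% of genes on the array. By windows, 4 of 12 (33.3%) held the motif, against 2.26% of all 32851 windows and 5.24% of the 839 windows of genes named in the array table. By genes, 4 of 9 (44.4%) held it in a full window, against 2.6% of all genes and 6.78% of genes on the array. Among other replication genes on the array 3 of 8 genes did (4 of 12 windows), and among G1 and S-phase regulators 3 of 9 (4 of 11 windows). Among genes of mitosis and the spindle 1 of 13 did (1 of 15 windows), and among genes of nucleotide supply 0 of 10 (0 of 13 windows). A match is a description of letters and not a measured binding site.

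**Figure D1:**
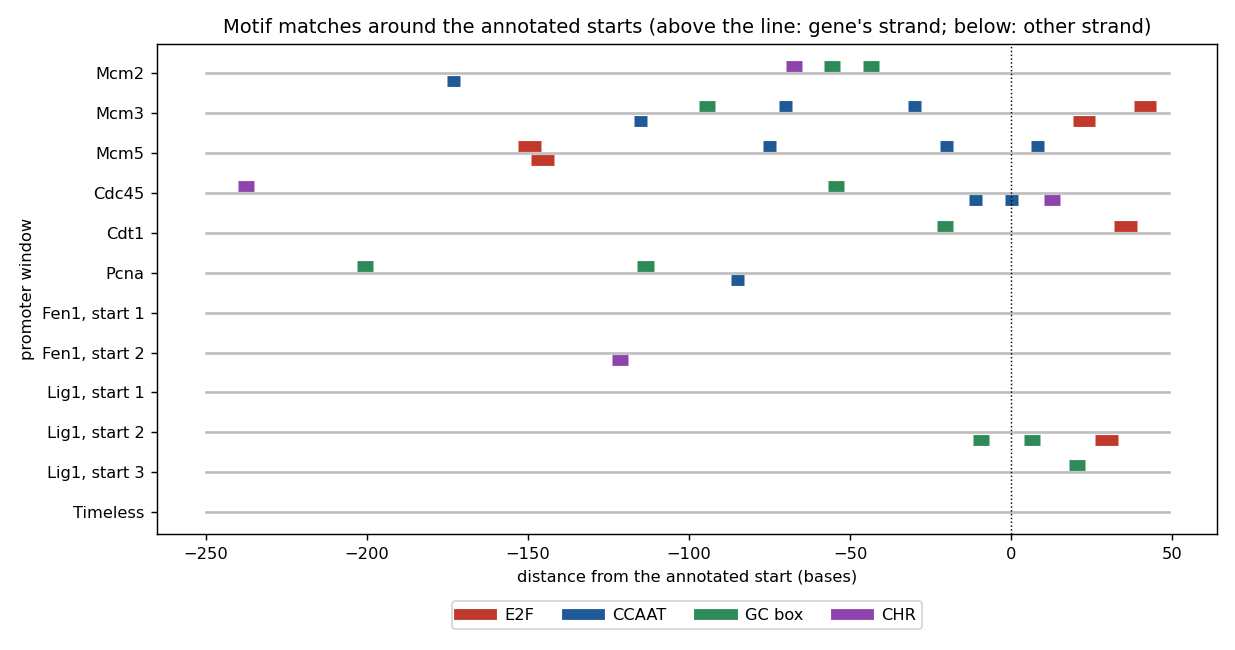
Matches to 4 motifs in 12 promoter windows of 9 genes, by distance in bases from the annotated start; blocks above a line lie on the gene's strand and blocks below it on the other. E2F matches are in 1 window each of Mcm3, Mcm5, Cdt1 and Lig1, and only those of Mcm5 lie before the start.

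Mcm2 and Mcm5, which sit in the same ring, show how far promoters differ among genes with like profiles. Their 250 bases before the start are shown 5′ to 3′ on the gene's strand (Mcm2 at chr6:88898781-88899030, minus strand; Mcm5 at chr8:75109259-75109508, plus strand). Capitals mark matches on either strand to the E2F motif, to CCAAT (the box bound by NF-Y), to the GC box GGGCGG and to TTTGAA, the core of the cell cycle homology region (CHR):
Mcm2: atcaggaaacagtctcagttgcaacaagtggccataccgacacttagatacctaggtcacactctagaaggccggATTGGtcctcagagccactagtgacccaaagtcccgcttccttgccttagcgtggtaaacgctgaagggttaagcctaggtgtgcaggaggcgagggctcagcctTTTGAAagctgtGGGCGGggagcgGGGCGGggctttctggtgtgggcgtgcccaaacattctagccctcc
Mcm5: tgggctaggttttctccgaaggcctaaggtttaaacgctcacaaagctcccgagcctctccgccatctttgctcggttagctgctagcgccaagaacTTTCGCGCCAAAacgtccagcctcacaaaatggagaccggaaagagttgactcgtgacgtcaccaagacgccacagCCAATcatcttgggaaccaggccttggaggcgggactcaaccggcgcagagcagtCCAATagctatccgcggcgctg
Mcm2 held 2 GC boxes, 1 CCAAT and 1 CHR core, and no E2F match was found in its letters. Mcm5 held the overlapping E2F matches and CCAAT boxes that began 77 and 22 bases before the start. Over the 9 genes, CCAAT was found for 5 and the GC box for 6. They were in 41.7% and 58.3% of the genes' windows, against 37.4% and 35.7% of all windows. Among windows of genes on the array the shares were 39.6% and 66.4%. With 12 windows, neither difference from the array's genes is large enough to read. The CHR core was in 3 of the 12 windows (25%), in 17.9% of all windows and in 13.8% of windows of genes on the array. Its difference from the array's genes is likewise not large enough to read. In the mitosis list 86.7% of windows held it.

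All 10 genes were high at E18 and P7 and low from P14 on. Their median stood at 80.5% at E18, 98.8% at P7, 23.8% at P14, 12.6% at P21 and 14.2% at P56. Every one of the 10 was under 50% at P14, P21 and P56, against 32.4% of all probes; since an experiment at its peak alone gives a mean of at least 50%, each gene peaked at E18 or P7 in both experiments. In whole tissue, fewer dividing cells and less RNA per cell cannot be told apart.

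**Figure D2:**
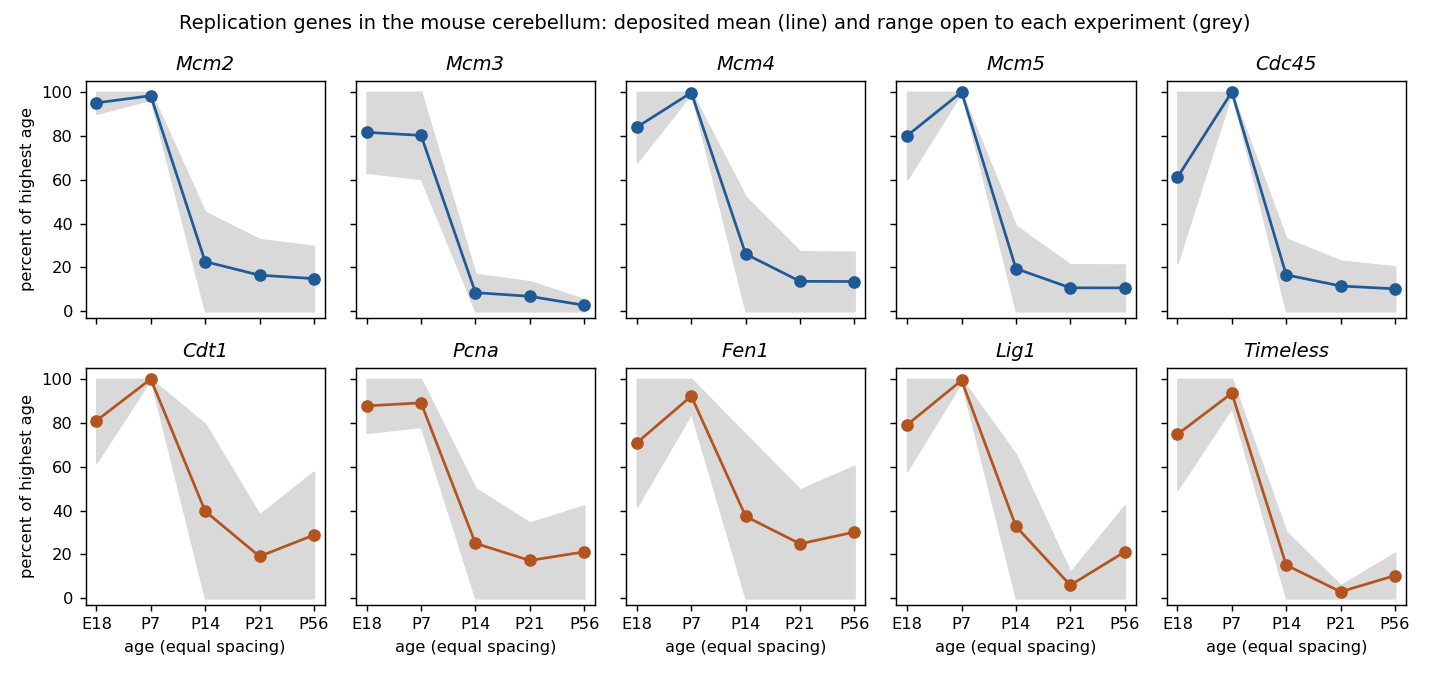
Percent of the highest age for each of the 10 genes at 5 ages, drawn at equal spacing; the line is the deposited mean and the grey area the range each of the 2 experiments could take. Blue lines are Mcm2 to Mcm5 and Cdc45, orange lines the other 5 genes. Each line drops between P7 and P14, and Lig1 and Timeless turn up most between P21 and P56.

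Between E18 and P7 none of the 10 genes rose or fell, against 5.80% of all probes that rose and 2.79% that fell. The median difference was 0.31 (log2), against 0.05 for all probes. Cdc45 moved most, from 61.1% to 100% (1.64-fold). Pcna, from 87.7% to 89.1%, and Mcm3, from 81.6% to 80.2%, moved least. With quantile normalization of the columns Cdc45 passed the limit, with a difference of 1.04 (log2).

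If the inferred scale holds, the means at these ages give or bound the values of the separate experiments. Cdc45, Mcm5 and Cdt1 stood at exactly 100% at P7, so both experiments peaked there. For the other 7 genes 1 experiment peaked at E18 and 1 at P7, which fixes all 4 values. Timeless went from 100% to 87.1% in one experiment and from 49.6% to 100% in the other, and Fen1 from 100% to 84.4% and from 41.9% to 100%. Mcm3 went from 100% to 60.4% and from 63.2% to 100%, so its nearly level means stand for differences of 1.66-fold and 1.58-fold in opposite directions. Lig1 went from 100% to 98.7% and from 58.3% to 100%, Mcm4 from 100% to 99.4% and from 68.0% to 100%. Pcna went from 100% to 78.3% and from 75.5% to 100%, and Mcm2 from 100% to 96.6% and from 90.1% to 100%. On that scale, the order of E18 and P7 differed between experiments for these 7 genes, and their peak age between these ages is not settled. Experiments that peak at different ages were common: 477 of all 897 probes had a highest mean under 100%.

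**Figure D3:**
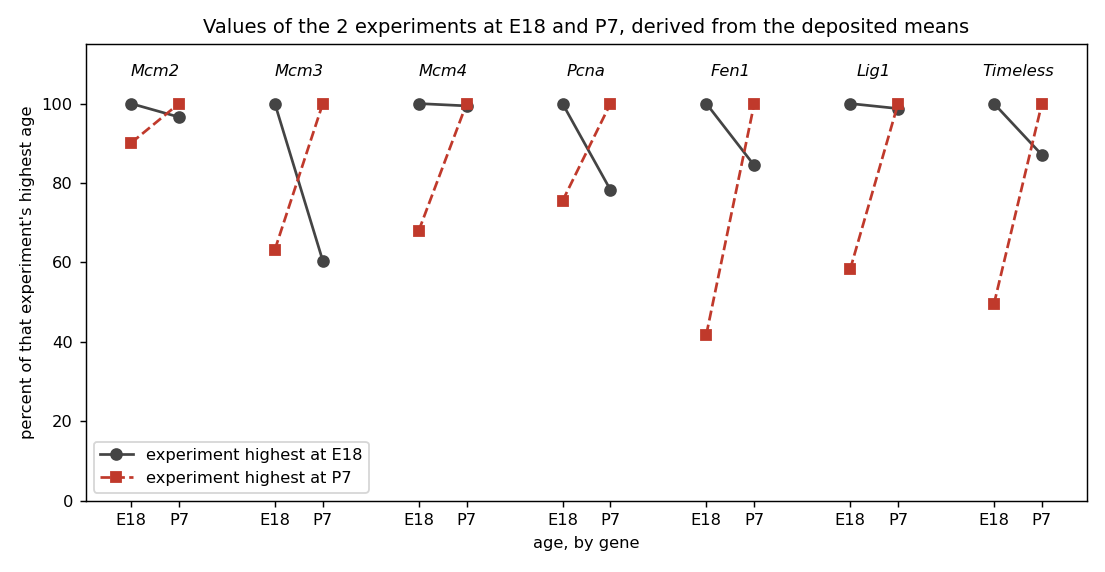
Values of both experiments at E18 and P7 for the 7 genes whose highest mean was under 100%, in percent of that experiment's own peak. They are derived from the deposited means on the inferred scale. Black lines go down from E18 and red dashed lines go up to P7 in each gene, by the most for Fen1 (from 41.9%). Which experiment is which can differ from gene to gene.

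From P7 to P14 all 10 genes fell, against 24.7% of all probes, with a median difference of -2.03 (log2) against -0.58. The 10 were listed with earlier results known, so this share is a description. Of 9 other replication genes measured, 6 fell at this step. The means dropped by over 50 points for all 10, so that both experiments must have gone down, against 16.7% of all probes. With each column divided by its median to remove the shift of all probes, 8 of the 10 fell, against 11.7% of all probes. Fen1 and Cdt1 then differed by -0.73 and -0.76.

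Among the helicase subunits, Mcm3 (NCBI Gene 17215) fell most, with 81.6% at E18, 80.2% at P7, 8.47% at P14, 6.79% at P21 and 2.70% at P56. Its fall from P7 to P14 was 9.47-fold, and at least 3.57-fold in each experiment. Mcm5 (17218) stood at 80.1%, 100%, 19.4%, 10.7% and 10.6% at the same ages, a fall of 5.14-fold at that step and of at least 2.57-fold in each experiment. In the deposited means neither gene was higher at a later age than at P14.

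Mcm2 (17216), at 95.0%, 98.3%, 22.6%, 16.4% and 14.9%, fell 4.35-fold from P7 to P14 and at least 2.14-fold in each experiment. Mcm4 (17217), at 84.0%, 99.7%, 26.1%, 13.6% and 13.5%, fell 3.82-fold and at least 1.91-fold in each experiment. These subunits of the ring kept the largest shares of their peak in the adult among the 4 Mcm genes. Cdc45 (12544), the helicase activator, stood at 61.1%, 100%, 16.6%, 11.5% and 10.2% and fell 6.04-fold, at least 3.02-fold in each experiment.

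Cdt1 (67177), the loading factor, stood at 81.0%, 100%, 39.7%, 19.1% and 28.8%. Its fall to P14 was 2.52-fold and may have been as small as 1.26-fold in one experiment. Fen1 (14156), the flap nuclease, stood at 70.9%, 92.2%, 37.3%, 24.8% and 30.2%, with a fall of 2.47-fold that may have been as small as 1.13-fold in one experiment. These 2 genes had the smallest falls of the 10 and kept the largest shares of their peak at P56.

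Pcna (18538), the clamp gene, stood at 87.7%, 89.1%, 25.1%, 17.2% and 21.1% and fell 3.56-fold to P14, by at least 1.56-fold in each experiment. Lig1 (16881), the ligase gene, stood at 79.1%, 99.4%, 32.8%, 5.93% and 21.2%, with a fall of 3.03-fold, at least 1.51-fold in each experiment. Timeless (21853), the fork protection gene, stood at 74.8%, 93.5%, 15.1%, 2.95% and 10.3% and fell 6.18-fold, at least 2.88-fold in each experiment. The limits put the fall at 2-fold or more in each experiment for Mcm2, Mcm3, Mcm5, Cdc45 and Timeless, and lay under 2-fold for the other genes. These limits were not worked out for all probes, so no background stands beside them. Lig1 and Timeless are the genes of the 10 that dipped deepest at P21 relative to P56.

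**Figure D4:**
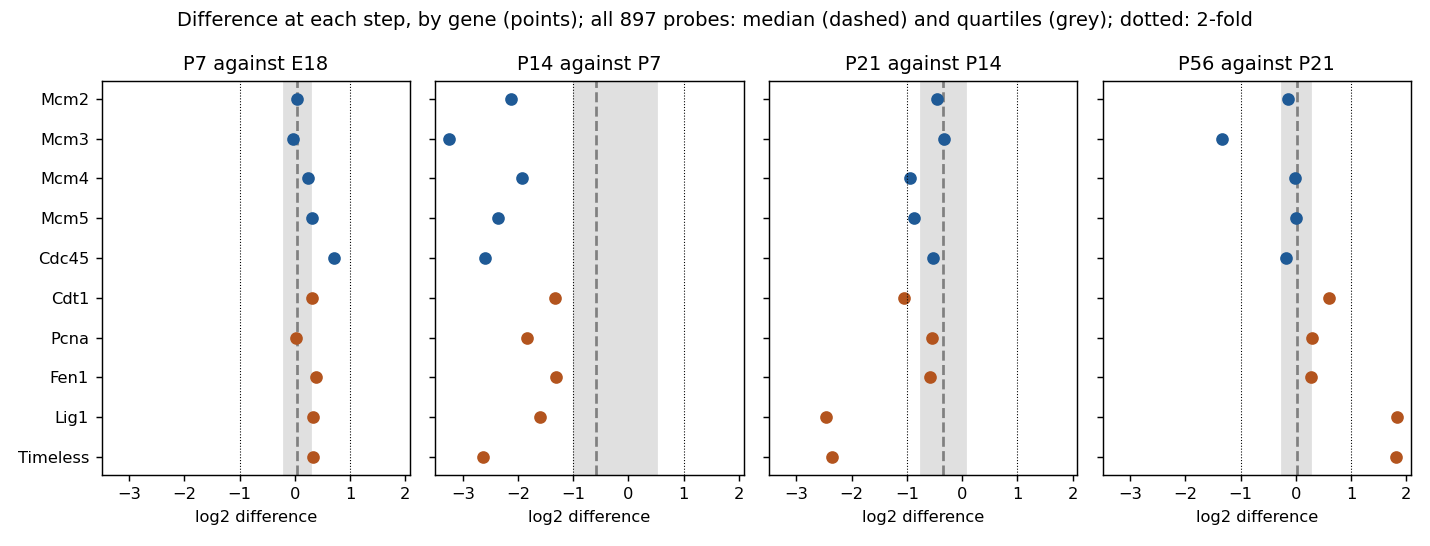
Log2 difference of each gene at each of 4 steps (points; blue for Mcm2 to Mcm5 and Cdc45, orange for the other 5), with the median (dashed line) and quartiles (grey) of all 897 probes and 2-fold limits (dotted). At P14 against P7 every point lies left of the 2-fold limit and of the grey area, and at P56 against P21 Lig1 and Timeless lie to the right of the upper limit.

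From P14 to P21 3 of the 10 genes fell, against 13.2% of all probes, with a median difference of -0.73 against -0.35. Lig1 fell 5.52-fold, Timeless 5.13-fold and Cdt1 2.08-fold. At this step the lowest fold of the others was 1.25 for Mcm3 and the highest 1.91 for Mcm4. Of the drop in points between P7 and P21, 97.7% had taken place by P14 for Mcm3 and 71.3% for Lig1, which mark the ends of the range. Directions at this step depend on the scale between columns. With quantile normalization Mcm3 passed the 2-fold limit upward from P14 to P21, the opposite of its deposited means, and Cdc45, Mcm2, Pcna and Mcm5 were higher by less than that, while Lig1 (-1.56) and Timeless (-1.05) stayed lower. When every value under 20.4%, the 10th percentile, was raised to it, 0 of the 10 fell at this step, against 7.02% of all probes.

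From P21 to P56 2 genes rose, Lig1 by 3.57-fold and Timeless by 3.50-fold, against 2.68% of all probes, and 1 fell, Mcm3 by 2.51-fold, against 2.23%. Each Lig1 experiment was at most 11.9% at P21, and a mean of 21.2% at P56 puts at least 1 experiment above that. For Timeless the limit at P21 was 5.90% and the mean at P56 10.3%. For Mcm3 the limit at P56 was 5.40% and the mean at P21 6.79%. That at least 1 experiment moved as the mean did holds for any change of a mean. For these 3 genes the limits do not show whether both experiments moved that way. Both rises held with columns divided by their medians (1.84 and 1.82, log2) and with quantile normalization (1.48 and 1.58), and neither reached 2-fold with the floor at 20.4%, which lies above all but 1 of the means in question.

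By sign alone, 5 of the 10 genes stood higher at P56 than at P21, against 52.1% of all probes, a share near the background. Cdt1, Pcna, Fen1, Lig1 and Timeless were the higher ones, and Mcm2 to Mcm5 and Cdc45 the lower ones. Mcm4 and Mcm5 differed between these ages by only -0.08 and -0.02 points and changed sign with the scaling. Other helicase genes on the array were higher at P56: Mcm7 stood at 11.1% at P21 and 12.1% at P56, and Mcm10, a helicase activation factor, at 6.61% and 9.89%.

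Over the whole course, all 10 genes fell from E18 to P56, against 52.5% of all probes, and all 10 fell from P7 to P56, against 52.3%. Against P7 the adult value was lower by 29.7-fold for Mcm3, 9.81-fold for Cdc45, 9.41-fold for Mcm5 and 9.06-fold for Timeless. Mcm4 was lower by 7.36-fold, Mcm2 by 6.62-fold, Lig1 by 4.70-fold and Pcna by 4.22-fold, and Cdt1 and Fen1 by 3.47-fold and 3.06-fold. The limits put the fall from P7 to P56 at 2-fold or more in each experiment for Mcm2 to Mcm5, Cdc45, Lig1 and Timeless. They were not worked out for all probes, so no background stands beside them. The exceptions are Cdt1, Pcna and Fen1, with lower limits of 1.73-fold, 1.85-fold and 1.40-fold. From E18 to P56 the lower limits were only 1.09-fold for Cdc45 and 1.07-fold for Cdt1. For Fen1 the limit was 0.69, so 1 experiment may have risen. For the other genes they ran from 1.38-fold for Lig1 to 11.7-fold for Mcm3. Since the median of all probes was lower by 1.07 (log2) at P56 than at E18, the falls are also given relative to it: after division by column medians 7 genes fell from E18 to P56, against 16.4% of all probes, and Lig1 (-0.89), Cdt1 (-0.48) and Fen1 (-0.22) did not reach 2-fold.

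Within the group, profiles were compared as the root mean square difference of log2 values over the 5 ages. Mcm2 and Mcm4 (0.18), Cdt1 and Fen1 (0.20), and Mcm5 and Cdc45 (0.21) lay closest together. Mcm3 stood farthest from the members' median profile (1.33), followed by Timeless, Fen1 (0.72), Cdt1 (0.63) and Lig1 (0.58). Fen1 and Mcm3 were the most distant of all pairs, at 2.01.

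Among 777 probes of other named genes, the 6 nearest to the median profile were Smc4, a condensin subunit gene (0.07), Nasp, a histone chaperone gene (0.10), Kpna2, a nuclear import receptor gene (0.15), Bok, a Bcl-2 family gene (0.16), Mcm7 (0.16) and Acot1, a thioesterase gene (0.21). The median distance of all 777 was 1.27. Smc4 stood at 77.9%, 100%, 24.5%, 13.7% and 13.6%, and Nasp at 93.1%, 97.8%, 22.8%, 12.5% and 13.9%. By single gene, the nearest of all was Smc4 for Mcm4 (0.06), Smarcc1 for Pcna (0.09), Mcm7 for Mcm5 (0.11), Bok for Mcm2 (0.11) and Nnat for Cdt1 (0.14). Fen1 was nearest to Srebf1 (0.15), Cdc45 to Rrm1 (0.21), Mcm3 to Cdca7 (0.25), Lig1 to Cdk2 (0.31) and Timeless to Tead2 (0.40). These are descriptions over 5 means that share their columns.

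Other replication genes followed a like course with exceptions. Of 70 listed genes 9 were measured. From P7 to P14 6 of them fell, against 24.7% of all probes, and 0 rose, with a median of -1.33 (log2). Mcm10 fell 7.72-fold, Prim1, a primase subunit gene, 7.33-fold and Mcm7 4.78-fold. Pole4, a small subunit of a DNA polymerase, was the one gene of the 9 that did not fall from P7 to P56, with 100% at E18, 72.6% at P7, 46.3% at P14 and 50.3% at P56. At P56 8 of the 9 stood above P21, against 52.1% of all probes, none by 2-fold. Rnaseh2b was the one that did not stand above P21.

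Of 36 listed genes of nucleotide supply 10 were measured. From P7 to P14 6 fell, against 24.7% of all probes, and 0 rose, with a median of -1.47. Tk1, the thymidine kinase gene, fell 22.6-fold, and Rrm2, a ribonucleotide reductase subunit gene, 7.41-fold. Ctps, which makes CTP, stood at 89.0% at P7, 69.7% at P14 and 45.0% at P56. Of 41 listed genes of repair and the S-phase checkpoint 4 were measured and 3 fell at this step, beside the same 24.7% of all probes. Dtl, an adaptor of the ubiquitin ligase that destroys Cdt1 protein, fell 4.37-fold from 93.5%, H2ax fell 3.87-fold and Apex1 2.28-fold, while Smc3, a cohesin gene, stood at 93.4% and 77.6%.

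Genes of mitosis and the spindle had a median of -2.87 at P14 against P7, beside -2.03 for the 10 replication genes. Of these genes of mitosis 14 of 17 fell, against 24.7% of all probes. Cdc20 fell 21.8-fold and Kifc5b, a kinesin gene, 14.3-fold, and Stmn1, which also serves growing neurons, stood at 81.4% and 42.5%. The list of G1 and S-phase regulators had a median of -1.71, with 11 of 13 fallen and 1 risen, against 24.7% and 14.4% of all probes. Ccna2, the cyclin A2 gene, fell from 100% to 7.40%. Differences between these lists were not tested, and over P56 against P7 their medians were -3.90, -2.89 and, for the 10 genes, -2.80.

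**Figure D5:**
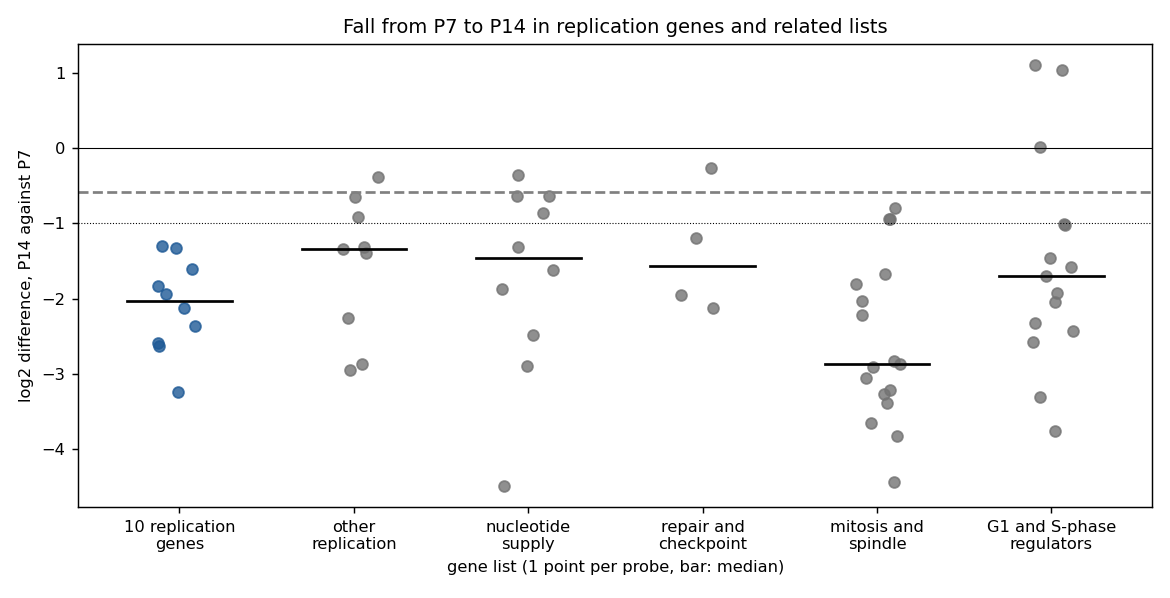
Log2 difference between P7 and P14 for each probe of the 10 replication genes (blue) and of 5 related lists (grey), with list medians (bars), the median of all probes (dashed) and the 2-fold limit (dotted). All 10 blue points lie below the limit, while each other list has at least 1 point above it.

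Markers of cell types moved in the same interval. From P7 to P14, 5 of 7 measured genes of granule cell progenitors fell, against 24.7% of all probes. Their summed level went from 644.5 to 196.6 percent points over 7 genes. Of mature granule cell genes 7 of 8 rose, the sum going from 109.7 to 591.04, and of Purkinje cell genes 3 of 4 rose, against 14.4% of all probes. Both measured genes of oligodendrocyte progenitors, Pdgfra and Vcan, fell, to a summed 29.8 at P14, as did 5 of 8 vascular and meningeal genes (653.7 to 313.4). Of glial progenitor and Bergmann glia genes 1 of 3 fell (277.5 to 140.8), near the 24.7% of all probes. Of 2 microglial genes 0 changed by 2-fold (164 to 140.5). Between P21 and P56, when Lig1 and Timeless rose, 1 of 2 oligodendrocyte progenitor genes rose. This was Pdgfra, by 3.48-fold, from 4.82% to 16.8%, while Vcan stood at 4.93% and 2.63%. Of the 7 granule cell progenitor genes 1 rose, Sfrp1 by 2.82-fold, and 0 fell. Of all probes 2.68% rose at this step. Gabra6, which marks mature granule cells, went from 4.67% at P7 to 94.2% at P14, and Pcp2, which marks Purkinje cells, from 39.2% to 100%. Atoh1, the defining progenitor gene, was not analysed here, and Ccnd1, Ccnd2 and Mycn of the progenitor list are also on the list of G1 and S-phase regulators. The part of any cell type in the replication gene values was not tested.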

How the data were processed

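Values were deposited as 1 column per age for 897 probes; per the labels each column is a mean signal of 2 array experiments. The unit was read as percent of the probe's highest age from the deposited values alone. No label or header used here states the scanner, background correction, normalization or choice of probes. Probes with 1 gene symbol in the platform's annotation (787, naming 773 genes) were named. Values under 1% were set to 1%, log2 was taken, probes of 1 gene were averaged for lists, and differences of 2-fold or more were counted, with no test. Bounds on both experiments follow from the mean and the limits 0 and 100. Promoter windows came from RefSeq tables of build GRCm38.p6; the array's own build is not given. Calculations ran in Python 3.11.15 with pandas 2.3.3 and were tested on simulated data. Named genes were all 10 members, the 6 nearest probes, each member's nearest gene and, per list, the largest falls and genes that did not fall from P7 to P56; Rnaseh2b, Apex1, the cell type genes and Mcm7's and Mcm10's adult values were added after values were seen. The members and lists were chosen with earlier results of these data known. Alternatives covered floors, a pseudocount, column scaling, fold limits and left-out ages or members.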

Additional observations from a re-analysis of the deposited data

How the results depend on the processing

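When values under 20.4% (the 10th percentile) were raised to it, 0 genes fell from P14 to P21 (3 in the main setting), against 7.02% of all probes. From P21 to P56 0 fell (1 in the main setting), against 1.11% of all probes. The medians moved to -1.94 for P56 against E18 (-2.61) and -2.22 for P56 against P7 (-2.80). Columns divided by their medians gave -1.60 and -1.82 for these medians, and quantile normalization -1.61 and -2.17. Quantile normalization also moved the median of P21 against P14 to -0.0592 (-0.73 in the main setting). It left 0 genes fallen from P21 to P56, against 1.9% of all probes, as did a limit of 3-fold, against 0.446%. A limit of 1.5-fold gave 6 genes fallen from P14 to P21, against 34.7% of all probes. The causes follow from construction for floors and limits and were not tested otherwise. In every setting run, 8 to 10 of the 10 genes fell from P7 to P14, against 11.6% to 49.8% of all probes. From E18 to P56 7 to 10 fell, against 16.4% to 64.9% of all probes. Leaving out each gene in turn kept the median of P14 against P7 between -2.12 and -1.93. The 6 nearest genes shared 4 to 6 names across left-out ages and 4 with values as deposited. Signal over background is not in the file, so how far low values lie above it is unknown. No paired analysis was possible because each age has 1 column.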

Other observations

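Among regulators of the G1 to S transition, a few profiles set the 10 replication genes in context; these were chosen after their values were seen. E2f1, which encodes a transcription factor of S-phase genes, stood at 67.0% at E18, 100% at P7, 24.3% at P14, 14.0% at P21 and 5.99% at P56. Ccne1, the cyclin E1 gene, stayed at 74.7% at P7 and 75.8% at P14, where none of the 10 replication genes was above 39.7%, and then fell to 21.1% at P21. Cdkn1a, the gene of the cyclin-dependent kinase inhibitor p21, had its highest age at P14 on both of its probes, which rose from 48.8% and 46.4% at P7 to 100%. By P56 these probes stood at 31.8% and 30.7%.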
